A study of Mus musculus with 5 samples.

Results

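The genes described here encode the proteins of the mitochondrial ribosome, and their mRNAs were followed in RNA from the cell membrane of mouse EL4 cells. Members were the protein-coding genes whose symbol is Mrpl or Mrps followed by a digit, without pseudogene symbols, which gave 78 of the 55385 genes in the count tables, 49 with an Mrpl symbol and 29 with an Mrps symbol. The study made Surface-seq libraries from EL4, an established mouse lymphoma line of T cell origin grown in suspension. Cell membrane was purified, wrapped around polymer cores to give membrane-coated nanoparticles, and sequenced in 2 ways. In variation A, with libraries A1, A2 and A3, RNA was taken out of the particles with phenol and chloroform, its ends were repaired and both adaptors were then ligated, so that RNA of either membrane side entered the library. In variation B, with libraries B1 and B2, the 3′ adaptor was ligated on the intact particles before RNA was purified, which favours RNA facing outwards. The comparison of B with A therefore asks which RNAs face outwards, but the variations also differ in end repair, RNA purification and library steps, so membrane side and protocol cannot be told apart. The sources do not say whether replicate libraries came from separate cultures, so p-values measure only the spread between libraries. Values of the libraries are given in the order A1 to A3 for variation A and B1, B2 for variation B.

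The mitochondrial ribosome makes the few proteins encoded by mitochondrial DNA, all of them parts of the respiratory chain. Its RNA comes from the mitochondrial genome, whereas its proteins are encoded in the nucleus, translated from cytosolic mRNAs and imported into mitochondria. Some of these proteins have counterparts in bacterial ribosomes and others are found in mitochondria only. The transcripts counted here are these cytosolic mRNAs, and the membranes were prepared with a spin meant to remove organelles.

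Sequencing depth differed strongly between the variations. Variation A libraries held 2301017, 4502174 and 1187117 counts on genes, and variation B libraries 21862003 and 22980172. Ribosomal RNA genes took 51.4%, 54.1% and 54% of them in variation A but 24.3% and 25.6% in variation B. To compare genes despite this, counts were divided by the TMM effective library size, a total corrected for the overall makeup of each library, and given as scaled CPM, counts on 1000000 of that size. A floor of 3 counts stands for 1.49, 1.17 and 4.44 scaled CPM in the variation A libraries, but only 0.0732 and 0.071 in those of variation B. The lymphocyte label was checked against marker genes. All 10 T lymphocyte markers, led by Thy1, had counts in every library, summing to 909, 941 and 887 scaled CPM in variation A and 1311 and 1271 in variation B. The 4 B lymphocyte markers, led by Pax5, summed to 2, 4 and 0 counts in variation A and 14 in each variation B library, with Ms4a1 at 0 throughout. The 5 myeloid markers summed to 0, 12, 2, 99 and 133 counts in the same order, with Adgre1 at 0 throughout. Lyz2 was the most abundant of them, with 73 counts in B1, 133 in B2 and 0 in variation A. By edgeR's quasi-likelihood test, adjusted over all genes tested by Benjamini-Hochberg, Cd3g was higher in variation B (log2 fold change 2.00, adjusted p = 0.00982). So was Cd3e, like Cd3g a T lymphocyte marker (1.13, adjusted p = 0.02, same test). No other T lymphocyte marker passed with a fold change above 2. Log2 fold changes were 0.94 for Cd28, 0.82 for Ptprc, 0.34 for Cd3d, 0.21 for Thy1 and 0.19 for Lck. They were -0.03 for Lat, -0.31 for Cd247 and -1.27 for Cd2. Of all genes tested, 11% were higher by the same rule. Lyz2 also passed (adjusted p = 0.0365, same test), but no fold change is measured over 0 counts in all of variation A. Its scaled CPM of 1.78 (B1) and 3.15 (B2) lay above the floors of A1 and A2 but below that of A3, 4.44. The call therefore does not establish a difference from A3. The part of these markers in the results was not tested. The 5 fibroblast and epithelial markers, led by Col1a1, summed to 2, 4, 0, 5 and 5 counts, with Krt18 at 0 throughout.

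Mitochondrial ribosomal protein mRNAs were present at low levels in all libraries. They held 1672, 2205 and 558 counts in the libraries of variation A and 30810 and 31815 in those of variation B. Of the 78 genes, 73, 72 and 61 reached 3 counts in the former and 76 and 75 in the latter, and 59 did so in every library. The median gene had 17.5, 22 and 5 counts in variation A, against 298 and 306, so that single genes are measured least well in A3.

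Levels were compared between genes per kb of exon, because exon length ran from 607 to 8631 bases. Mrpl28, a large subunit protein with a bacterial counterpart, had the highest mean level, 18.3 scaled CPM per kb over the 5 libraries. Mrpl10, which forms the base of the flexible ribosomal stalk, followed at 17.3. Mrpl12, the stalk protein that binds it, stood at 16.7 and Mrpl9 at 14.2. These genes overlap in their ranges over libraries, from 12.5 to 21.7 for Mrpl28, 11 to 24.3 for Mrpl10, 8.44 to 24.1 for Mrpl12 and 5.48 to 28.8 for Mrpl9, so their order is not resolved. The mean also pools libraries in which different genes were highest. These were Mrpl28 in A1 (20.5), Mrpl4 in A2 (27.1), Mrpl10 in A3 (24.3) and Mrpl9 in B1 and B2 (22 and 28.8). At the low end of the means stood Mrpl23 at 0.123 and Mrpl53 at 0, both large subunit genes. Reads over exons of several genes or with several alignments were left out. Other genes cover 88% of the exon bases of Mrpl53, and Mrpl23 has a pseudogene of similar sequence. Both levels may therefore be understated.

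Whether these mRNAs made up more or less of the variation B libraries depended on what they were measured against. They took 0.0727% of all counts in A1 (Wilson interval at 95% confidence, 0.0693 to 0.0762). In A2 they took 0.049% (0.047 to 0.0511), and A3 was close to it at 0.047% (0.0433 to 0.0511). In variation B they took 0.141% (B1, 0.139 to 0.143) and 0.138% (B2, 0.137 to 0.14). Both variation B libraries lay above all variation A libraries, and the mean share was 2.48 times as high (exact permutation test over libraries, two-sided, p = 0.1, the smallest that 3 against 2 allow). Intervals and floors cover counting error only, since the libraries carry no molecular identifiers and copies of 1 molecule count more than once. On the scaled CPM the same genes summed to 829, 858 and 826 in variation A but to 752 and 753 in variation B, which lay below (mean 838 ± 17.3 (SD, n = 3) against 752 ± 0.822 (SD, n = 2), exact permutation test, two-sided, p = 0.1).

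Of protein-coding counts, the share was 0.185%, 0.217% and 0.214% in variation A against 0.221% and 0.214%, so that the variations overlapped (exact permutation test, two-sided, p = 0.5). This denominator was affected by Lars2, the mitochondrial leucyl-tRNA synthetase gene, which held 32.2%, 12.6% and 12% of protein-coding counts in variation A but 4.27% and 4.94% in variation B. Without Lars2, an alternative chosen after seeing the data, the ribosomal protein share was 0.272%, 0.248% and 0.243% in variation A and 0.231% and 0.226% in variation B (exact permutation test, two-sided, p = 0.2). Both variation B libraries then lay below variation A.

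**Figure D1:**
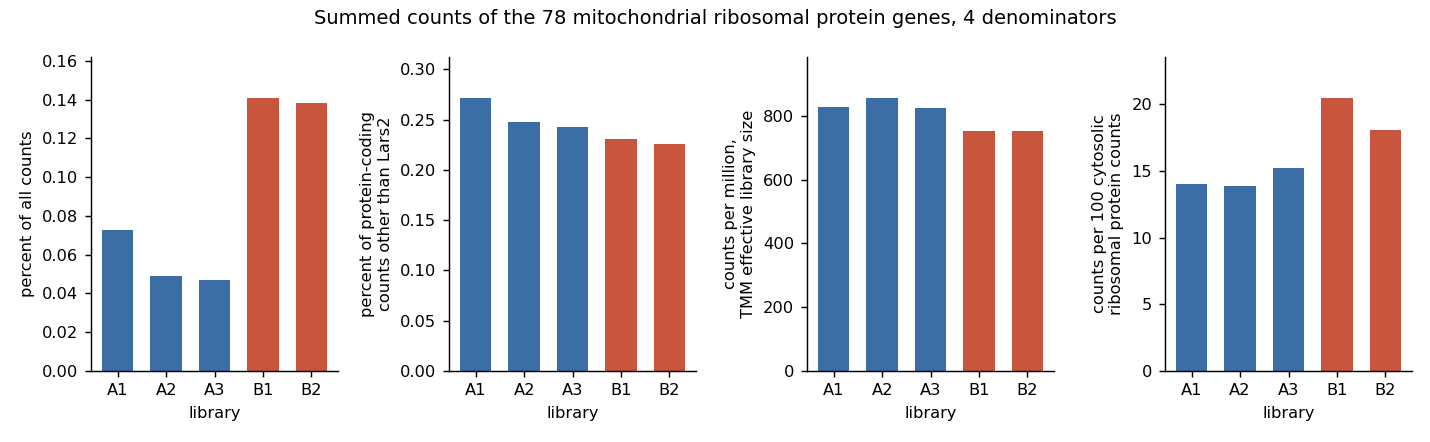
Summed counts of the 78 mitochondrial ribosomal protein genes in each library (blue, variation A; red, variation B) over 4 denominators, with every axis starting at 0. The variation B bars are above variation A for all counts and for cytosolic ribosomal protein counts, and below it for the other denominators.

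Ratios between gene groups of the same library do not depend on the library total. They, and the sum on the scaled CPM, were added after the data were seen. Per 100 counts on cytosolic ribosomal protein genes, mitochondrial ribosomal protein genes had 14, 13.9 and 15.2 counts in variation A but 20.5 and 18.1 in variation B. Per 100 counts on nuclear genes of the respiratory chain, they had 25.3, 23.6 and 24.9 in variation A and 27.9 and 27.4 in variation B. Both ratios were higher in each variation B library than in any of variation A. Per 100 counts on mRNAs of the mitochondrial genome they had 104, 134 and 118 counts in variation A and 73.6 and 68.1 in variation B, the opposite direction. Each of the 3 ratios gave p = 0.1 in the exact two-sided permutation test, or 0.133 after Benjamini-Hochberg adjustment over the 8 summed quantities compared. With only genes that share no exon base with another gene, the ratio to respiratory chain counts turned, with a difference of -1.27 (B minus A) in place of 3.03. The ratio to cytosolic ribosomal protein counts then differed by 0.858 in place of 4.97 (exact permutation test, two-sided, p = 0.4).

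Gene by gene, few members passed the test, and they moved both ways. Variation B was compared with variation A by the quasi-likelihood test of edgeR, p-values were adjusted by Benjamini-Hochberg over the 10287 genes tested, and genes were called where the adjusted p was below 0.05 and the fold change exceeded 2. Of the 78 members 74 passed the filter on low counts, and of these 3 passed as higher in variation B and 5 as lower, 4.05% and 6.76%, where 11% of all genes tested were higher and 12.4% lower. Calls in either direction were 10.8% of the members and 23.4% of all genes. The median log2 fold change was -0.29 over the 74 members and 0.05 over all genes tested. In this fit the shares called were below those of all genes, and 66 of the 74 members did not pass. Scaled CPM of both variation B libraries lay above all variation A libraries in 12 members (16.2%) and below them in 24 (32.4%), against 31.2% and 26.7% of all genes tested. With library totals as the only scaling, 32 members were called higher and 1 lower (55.1% and 2.93% of all genes). The median was then 1.24 over the members and 1.50 over all genes tested, so the members again lay below all genes. In DESeq2, which tested 77 members and 25327 genes, the order was the other way, with a median of -0.28 over the members and -0.91 over all genes. It was run without the filter on low counts, so the genes compared with also changed. Over protein-coding genes alone its median was -0.38. Without that filter edgeR gave medians of -0.15 over 77 members and 0.46 over 25327 genes. The split of calls depended on the scaling in the same way for all genes, where 47.1% of calls were higher with TMM and 95% with library totals, and for the members, where 37.5% and 97% were.

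The counts of members called also depended on the filter, the model and single libraries, and each member share is given beside that of all genes under the same setting. DESeq2 called 2 of 77 members higher (2.6% against 4.37% of all genes) and 4 lower (5.19% against 6.67%). In edgeR, RLE factors gave 3 of 74 higher (4.05% against 11.1%) and 5 lower (6.76% against 12.6%). Upper-quartile factors gave 2 of 74 higher (2.7% against 9.29%) and 7 lower (9.46% against 14.4%). Under these scalings the member shares were below those of all genes in both directions, which did not hold for every filter. Without a filter on low counts, 3 of 77 members were higher (3.9% against 4.82%) and 3 lower (3.9% against 3.5%). With at least 10 counts in every library only 17 members were tested, of which 2 were higher (11.8% against 12.9%) and 3 lower (17.6% against 15.7%). The member share called lower was thus near, and slightly above, that of all genes in both settings. Without ribosomal RNA and mitochondrial genome genes, 3 of 72 members were higher (4.17% against 11.5%) and 6 lower (8.33% against 13%). With the replicate number as a block, 1 of 74 was higher (1.35% against 7.4%) and 2 lower (2.7% against 7.9%). At equal depth, 1 of 55 was higher (1.82% against 9.67%) and 4 lower (7.27% against 11.7%). These shares rest on few called members, and no difference from all genes was tested. With the length trend removed, 3 of 74 were higher (4.05% against 9.75%) and 5 lower (6.76% against 14.1%). A test against a fold change of 2 left 0 of 74 higher (2.81% of all genes) and 2 lower (2.7% against 3.77%), with 2 higher and 4 lower at an unadjusted p under 0.05.

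Leaving out single libraries changed the members called in number and in relation to all genes. Without A1, 9 of 74 members were higher (12.2% against 20.8%) and 12 lower (16.2% against 15%). Without A2, 1 of 75 was higher (1.33% against 3.46%) and 3 lower (4% against 3.64%). The member share called lower was thus again slightly above that of all genes. Without A3, 1 of 75 was higher (1.33% against 3.57%) and 2 lower (2.67% against 3.86%). Without B1, 0 of 72 members passed in either direction (1.92% and 2.3% of all genes), with 3 higher and 8 lower at an unadjusted p under 0.05. Without B2, 0 of 73 passed (1.55% and 1.32% of all genes), with 1 higher and 7 lower at an unadjusted p under 0.05. So none of the 8 calls holds with a single variation B library, which is then assumed to vary like the variation A libraries.

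**Figure D2:**
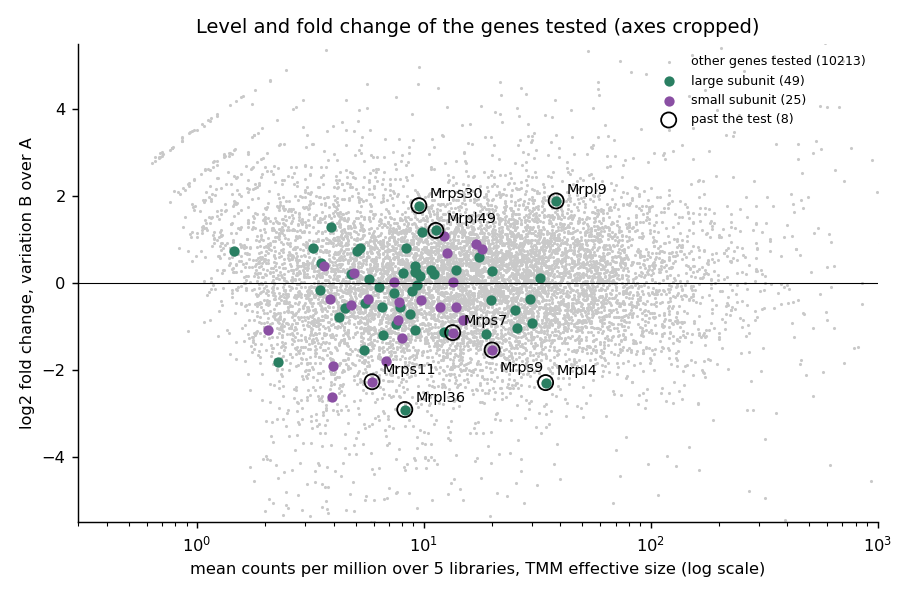
Mean scaled CPM over the 5 libraries (log axis) and log2 fold change of variation B over A for the genes tested, with both axes cropped. Mitochondrial ribosomal protein genes (green, large subunit; purple, small subunit) lie within the cloud of other genes (grey), and the 8 circled genes passed the test, 3 above 0 and 5 below.

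Mrpl9, a large subunit protein with a bacterial counterpart, had the largest rise. Its scaled CPM was 14.9, 24.5 and 14.8 in the variation A libraries and 59.3 and 77.9 in those of variation B. Variation B lay above all variation A libraries without overlap, with a log2 fold change of 1.89 (approximate SE 0.34, edgeR's quasi-likelihood test, adjusted p = 0.00839 by Benjamini-Hochberg). Mrpl9 (ENSMUSG00000028140.13) lies on chromosome 3 of GRCm38 from 94443318 to 94451130, plus strand. It was the most counted member in both variation B libraries, where it held 7.89% and 10.4% of all member counts, against 1.79%, 2.86% and 1.79% in variation A. Without Mrpl9, an alternative chosen after seeing the data, the ratio to respiratory chain counts differed by 1.04 (exact permutation test, two-sided, p = 0.4).

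Mrps30 and Mrpl49, both large subunit proteins found in mitochondria and not in bacteria, also rose. The scaled CPM of Mrps30, a large subunit protein despite its symbol, was 7.94, 3.89 and 1.48 against 14.6 and 19.6, from 16, 10 and 1 counts in variation A. Its log2 fold change was 1.78 (approximate SE 0.49, adjusted p = 0.0339, edgeR with Benjamini-Hochberg adjustment). That of Mrpl49 was 9.42, 7.39 and 4.44 in variation A and 16.8 and 18.2 in variation B, with a log2 fold change of 1.21 (approximate SE 0.37, adjusted p = 0.0457, same test). In both genes variation B lay above variation A without overlap. With the replicate number as a block neither passed, at adjusted p = 0.0719 for Mrps30 and 0.218 for Mrpl49 (edgeR with Benjamini-Hochberg adjustment). Mrpl49 passed in only 6 of 15 alternatives, and also missed the threshold in DESeq2 (adjusted p = 0.0636), with upper-quartile factors (0.059, edgeR) and at equal depth (0.168, edgeR). Mrps30 passed in 8 of 15 and also missed it at equal depth (adjusted p = 0.0775, edgeR).

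Mrpl36 and Mrpl4, both large subunit proteins with bacterial counterparts, had the largest falls among the genes past the test. The scaled CPM of Mrpl36 was 5.95, 12.8 and 19.3 in variation A but 1.76 and 1.4 in variation B. Its log2 fold change was -2.91 (approximate SE 0.58, adjusted p = 0.0116, edgeR with Benjamini-Hochberg adjustment). Mrpl4, which lines the tunnel through which the new protein leaves the ribosome, lies on chromosome 9 from 21002738 to 21008839, plus strand. Its scaled CPM was 28.8, 70.8 and 51.8 in variation A and 11.1 and 9.56 in variation B. Its log2 fold change was -2.29 (approximate SE 0.42, adjusted p = 0.00939, same test). In variation A the libraries differed among themselves, with A1 the lowest in both genes, but none reached down to variation B. With library totals Mrpl4 did not pass, at a log2 fold change of -0.73 (adjusted p = 0.108, edgeR with Benjamini-Hochberg adjustment), while Mrpl36 did, at -1.37 (0.0463).

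The other 3 falls were in small subunit proteins with bacterial counterparts. Mrps9 had 26.3, 21.4 and 34.1 scaled CPM in variation A but 9.35 and 8.92 in variation B. Its log2 fold change was -1.54 (approximate SE 0.34, adjusted p = 0.0168, edgeR with Benjamini-Hochberg adjustment). Mrps7 had 21.3, 15.2 and 14.8 in variation A and 6.96 and 8.71 in variation B, with a log2 fold change of -1.14 (approximate SE 0.35, adjusted p = 0.0473, same test). Mrps11 had 2.98, 11.3 and 11.8 in variation A and 1.34 and 2.11 in variation B, with a log2 fold change of -2.27 (approximate SE 0.67, adjusted p = 0.0404, same test). Variation B lay below variation A without overlap in all 3 genes, with A1 close to variation B for Mrps11. With the replicate number as a block none of the 3 passed, at adjusted p = 0.0679 for Mrps9, 0.135 for Mrps7 and 0.0971 for Mrps11. With library totals none passed either, and the log2 fold change was -0.08 for Mrps9 (adjusted p = 0.86, edgeR), -0.70 for Mrps11 and 0.28, of the other sign, for Mrps7. Mrps7 passed in only 4 of 16 alternatives, and also missed the threshold in DESeq2 (adjusted p = 0.0846), without a filter, with at least 10 counts in every library and with the length trend removed. Mrps9 passed in 10 of 16 and Mrps11 in 6 of 14, where Mrpl4 passed in 13 of 16 and Mrpl36 in 13 of 15.

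**Figure D3:**
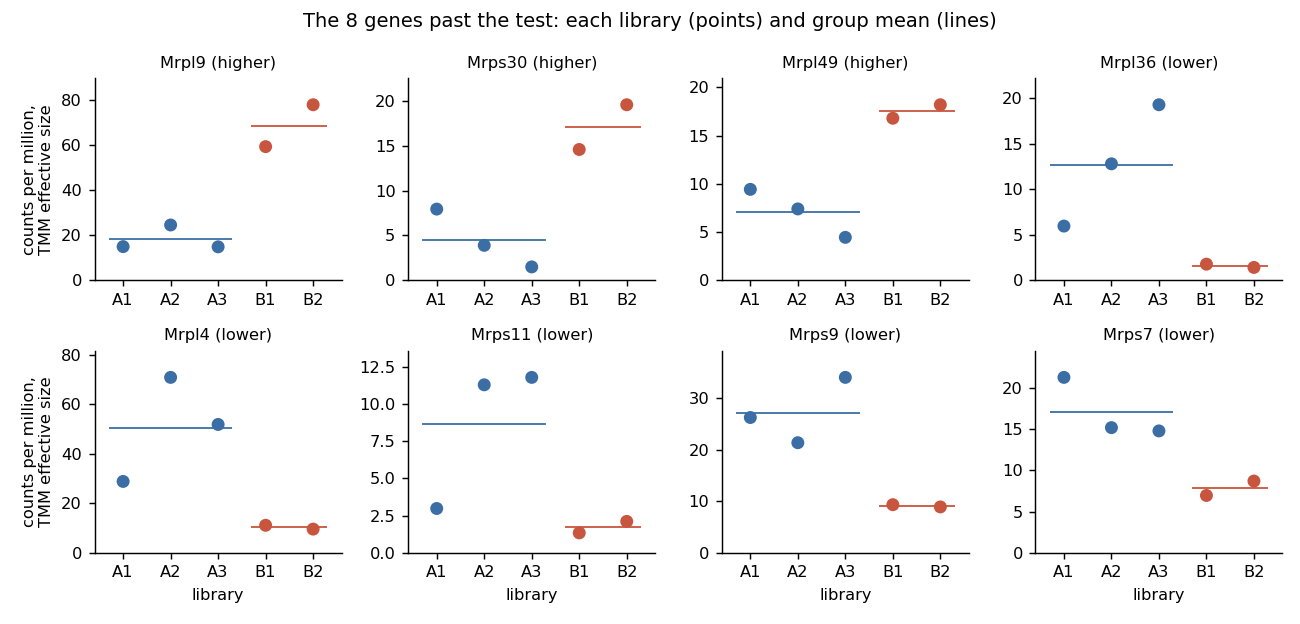
Scaled CPM of the 8 genes past the test in each library (points; blue, variation A; red, variation B), with lines at group means and every axis starting at 0. In each gene the variation B points lie wholly above (Mrpl9, Mrps30, Mrpl49) or wholly below (the others) the variation A points.

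Promoter windows were read, and their letters are set beside the direction of change for the genes past the test. Both variations used EL4 cells, so the comparison of B with A does not measure transcription. RefSeq windows on GRCm38.p6, from 250 bases before to 50 after a gene start, were matched for 69 of the 78 genes, with 75 windows. The table holds none for Mrpl4, Mrpl13, Mrpl15, Mrpl19, Mrpl38, Mrpl54, Mrps28, Mrps34 and Mrps35. The motifs searched on both strands were GCGCANGCG for NRF1, CCGGAAG for ETS factors, AANATGGCG for YY1 and the E-box CACGTG. None of the 4 contains another. The motifs were chosen after the data were seen, and the letters of NRF1 and YY1 were shortened after an earlier search. Their shares of windows are therefore not those of motifs fixed beforehand, and no difference in shares was tested. A match to the NRF1 letters was in 21.3% of the 75 windows, against 8.91% of the 20139 windows of protein-coding genes and 6.25% of all 32851 windows. The ETS letters were in 34.7%, 11.9% and 8.86% of the same windows, the YY1 letters in 14.7%, 3.27% and 2.38%, and the E-box in 9.33%, 8.03% and 7.15%. The E-box windows of the members include 3 overlapping ones of Mrpl2, and counted by gene the E-box was in 7.25% of the members, 9.17% of protein-coding genes and 8.09% of all genes with a window. Of the 68 windows of cytosolic ribosomal protein genes, 11.8% had the NRF1 letters, 36.8% the ETS letters, 11.8% the YY1 letters and 11.8% the E-box. Of the called genes with a window, Mrpl49 and Mrps7 had none of the motifs and Mrpl36 had the YY1 letters and the E-box. The NRF1 letters were in the windows of Mrpl9, which rose, and Mrps9, which fell, and the YY1 letters in those of Mrps30, which rose, and Mrps11, which fell. These 4 windows are shown, with the matched letters in capitals.
Mrpl9, chr3:94443086-94443385, plus strand: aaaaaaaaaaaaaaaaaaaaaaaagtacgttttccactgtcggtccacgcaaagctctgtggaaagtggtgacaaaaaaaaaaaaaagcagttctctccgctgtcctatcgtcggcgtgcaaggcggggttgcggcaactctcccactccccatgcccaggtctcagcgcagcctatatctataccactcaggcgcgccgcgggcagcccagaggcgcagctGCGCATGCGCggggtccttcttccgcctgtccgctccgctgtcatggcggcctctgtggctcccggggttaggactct
Mrps9, chr1:42850983-42851282, plus strand: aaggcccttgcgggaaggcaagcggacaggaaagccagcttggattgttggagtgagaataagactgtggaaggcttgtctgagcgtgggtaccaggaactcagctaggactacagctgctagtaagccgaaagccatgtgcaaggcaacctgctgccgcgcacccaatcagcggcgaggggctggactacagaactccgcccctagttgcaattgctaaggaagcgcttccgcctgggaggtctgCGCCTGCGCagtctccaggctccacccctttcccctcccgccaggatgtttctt
Mrps30, chr13:118387203-118387502, minus strand: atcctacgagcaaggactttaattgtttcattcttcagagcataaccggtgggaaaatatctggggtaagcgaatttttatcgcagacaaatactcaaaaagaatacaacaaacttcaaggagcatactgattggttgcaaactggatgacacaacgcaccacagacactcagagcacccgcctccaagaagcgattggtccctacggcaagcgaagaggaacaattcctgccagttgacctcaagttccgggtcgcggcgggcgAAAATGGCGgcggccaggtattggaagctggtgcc
Mrps11, chr7:78782881-78783180, plus strand: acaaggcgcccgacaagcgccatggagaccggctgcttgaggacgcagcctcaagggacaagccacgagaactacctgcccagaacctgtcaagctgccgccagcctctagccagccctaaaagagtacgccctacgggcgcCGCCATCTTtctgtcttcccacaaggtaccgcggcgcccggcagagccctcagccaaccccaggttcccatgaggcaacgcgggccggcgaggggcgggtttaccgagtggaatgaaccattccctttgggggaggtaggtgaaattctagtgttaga
So the NRF1 and YY1 letters each occurred with both directions of change. The ETS letters were in no window matched to a called gene and the E-box only in that of Mrpl36, and a match describes letters in a window, not a site in use.

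Members chosen by role were not among the 8 called genes. Mrpl12, at a scaled CPM of 25.8, 37.0 and 34.1 in variation A and 12.9 and 18.5 in variation B, came closest, with a log2 fold change of -1.03 (approximate SE 0.33, adjusted p = 0.0548, edgeR with Benjamini-Hochberg adjustment). Mrps12, a protein of the decoding centre, had 7.94, 3.11 and 5.92 against 2.05 and 0.923, and a log2 fold change of -1.90 with an SE of 0.69 (adjusted p = 0.0759, same test). Both variation B libraries lay below variation A in these genes. Mrpl12 was called lower with upper-quartile factors (adjusted p = 0.0386), without ribosomal RNA and mitochondrial genome genes (0.0498), at equal depth (0.0495) and without A1 (0.00584, edgeR with Benjamini-Hochberg adjustment for all 4). With library totals its sign turned, at 0.47, and both variation B libraries lay above variation A. Mrpl44, a mitochondria-specific large subunit protein, had 17.4, 12.8 and 13.3 against 23.3 and 20.7, above variation A in both libraries but at a log2 fold change of 0.59 (adjusted p = 0.200, edgeR). Mrpl45, which sits at the exit of the tunnel near the inner membrane, had 26.3, 16.3 and 11.8 against 18.1 and 27.6. Mrpl58, a peptidyl-tRNA hydrolase built into the large subunit, had 13.9, 9.72 and 7.41 against 10.7 and 13.9. The variations overlapped in both. With library totals these 3 genes were called higher, Mrpl44 at 2.02 (adjusted p = 0.00969), Mrpl45 at 1.68 (0.0333) and Mrpl58 at 1.62 (0.0264, edgeR with Benjamini-Hochberg adjustment for all 3). Of the highest genes per kb, Mrpl28 had a log2 fold change of -0.61 (adjusted p = 0.154) and Mrpl10 of -0.37 (adjusted p = 0.485, edgeR for both). Both signs turned with library totals, where Mrpl28 stood at 0.86 (adjusted p = 0.0626) and Mrpl10 was called higher at 1.17 (adjusted p = 0.0211, edgeR for both).

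The subunits were compared next. Large subunit genes, 49 of 51 tested, had 3 called higher and 2 lower, 6.12% and 4.08% beside the 11% and 12.4% of all genes tested, and a median log2 fold change of -0.05. Small subunit genes, 25 of 26 tested, had 0 higher and 3 lower (12%, near the share of all genes) and a median of -0.50, with 2 higher and 7 lower at an unadjusted p under 0.05 in edgeR and 0 higher in DESeq2. Members with bacterial counterparts, 45 of 46 tested, had 1 higher and 5 lower (2.22% and 11.1%, the latter also near that of all genes) and a median of -0.43. Members particular to mitochondria, 29 of 31 tested, had 2 higher (6.9%) and 0 lower and a median of 0.20, with 3 and 3 at an unadjusted p under 0.05 and 0 lower in DESeq2. All these medians were above 0 with library totals, where the median of all genes is also shifted. The median of members particular to mitochondria turned to -0.19 at equal depth, with 0 of 23 called, and to -0.61 with at least 10 counts in every library, where 5 were tested. The large subunit median, close to 0, also turned in some settings, to 0.27 without A1. With the replicate number as a block 0 of the 25 small subunit genes and 0 of the 29 particular to mitochondria were called. The difference between the groups was not tested. Small subunit counts per 100 large subunit counts were 44.7, 42.5 and 42.1 in variation A and 40.1 and 35.6 in variation B (exact permutation test, two-sided, p = 0.1). The difference was -5.25, and it was -3.05 without B2 (exact permutation test, two-sided, p = 0.5) and -7.45 without B1. Without Mrpl9 the difference shrank to -1.22 (p = 0.5 in the same permutation test).

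Counting did not use strand and left out reads that lay over exons of more than 1 gene, so overlapping genes are uncertain. Of the 78 members, 32 share exon bases with another gene, among them all 3 that rose and Mrpl36, Mrps11 and Mrps7 of those that fell. The shared part was 5.81% of exon bases in Mrpl9 (Oaz3), 9.35% in Mrps30 (B430218F22Rik), 4.85% in Mrpl49 (Syvn1), 2.58% in Mrpl36 (Ndufs6), 7.97% in Mrps11 (Mrpl46) and 11.9% in Mrps7 (Gga3 and Mif4gd), in each case on the other strand. Oaz3 had 0, 1, 0, 0 and 0 counts and B430218F22Rik had 0 in every library. Ndufs6 moved the same way as Mrpl36, at 13.9, 22.2 and 29.6 scaled CPM against 9.54 and 9.44, with a log2 fold change of -1.15 (adjusted p = 0.0592, edgeR with Benjamini-Hochberg adjustment). Syvn1, Gga3 and Mif4gd had log2 fold changes of -0.40, -0.22 and -0.45 (adjusted p = 0.323, 0.602 and 0.373, same test), where Mrpl49 rose and Mrps7 fell. Mrpl4 and Mrps9 share no exon base with another gene, and they were the 2 called among the 43 members tested without an overlap, both lower, where 23.8% of all genes without an overlap were called in either direction. Of these 43 members 0 were called higher, with 1 higher at an unadjusted p under 0.05 in edgeR and 0 higher in DESeq2. Mrps11 and Mrpl46 lie head to head on chromosome 7 and share 173 exon bases. Mrpl46 had a scaled CPM of 10.4, 6.61 and 7.41 in variation A and 8.79 and 12.7 in variation B, so the fall in Mrps11 was not seen in its neighbour, whose log2 fold change was 0.39 (adjusted p = 0.505, edgeR).

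Near-identical copies are a second limit, because reads with several alignments were dropped. An annotated pseudogene transcript aligned at 90% identity or more over at least 100 bases for 29 of the 78 members, none of them among the 8 called genes. Of the 26 tested, 0 were called in either direction, beside 23.4% of all genes, with 2 higher and 4 lower at an unadjusted p under 0.05 (edgeR; 0 called in DESeq2). Other settings did call some of them, with 12 higher for library totals, 5 higher and 2 lower without A1, 1 higher with at least 10 counts in every library, and 1 lower each with upper-quartile factors, without ribosomal RNA and mitochondrial genome genes and at equal depth. The 4 members that did not pass the filter were Mrpl53, Mrps36, Mrps33 and Mrpl23. Mrpl53 was at 0 in every library, and 88% of its exon bases lie over other genes. Mrps36, which has been reassigned to the 2-oxoglutarate dehydrogenase complex and is not a ribosomal protein, had 1, 0, 1, 0 and 0 counts. Mrps33 had 1, 2, 0, 26 and 3 counts and Mrpl23 had 3, 1, 0, 15 and 32. The last 3 each have such a pseudogene. For Mrpl53, a count of 0 allows up to 3 counts, which is 4.44 scaled CPM in A3 and 0.0732 in B1.

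Agreement between libraries over the members differed by pair. The Spearman correlation of scaled CPM per kb over the 78 members was 0.89 for B1 and B2 and 0.89 for A2 and A3, 0.73 for A1 and A2 and 0.68 for A1 and A3. Across variations the lowest value was 0.52 (A3 with B2) and the highest 0.71 (A1 with B1). Libraries of the same variation share a protocol but, in variation A, not depth, and pairs across variations share neither. The genes of a library are not independent replicates. Of 76 members with at least 10 counts in B1 or B2, 11 differed by more than 2-fold between B1 and B2. Those furthest apart, named after their values were seen, were Mrps18c with 104 counts in B1 and 0 in B2, Mrps33 with 26 and 3, Mrps34 with 12 and 65, and Mrpl47 with 303 and 72. Mrps34, with 77.8% of exon bases shared with other genes, had 1, 22 and 6 counts in variation A, so its libraries also disagreed within variation A.

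**Figure D4:**
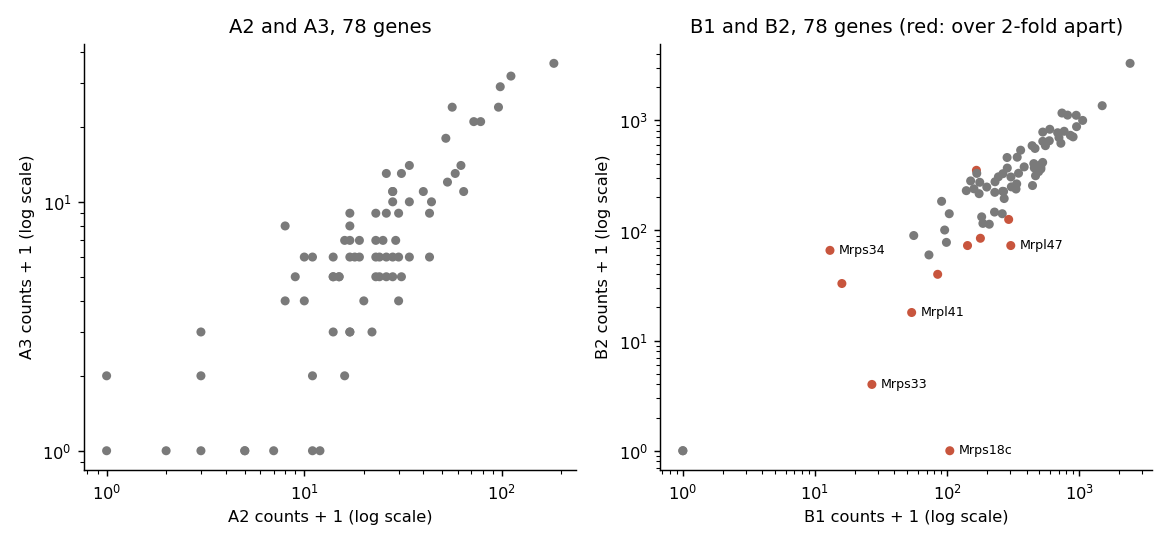
Counts plus 1 of the 78 members in A2 and A3 (left) and in B1 and B2 (right), both axes log. Most members lie along a diagonal, and in the right panel 11 members (red) are over 2-fold apart after scaling, led by Mrps18c with 104 counts in B1 and 0 in B2.

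Other genes of mitochondrial translation were taken as 4 lists. Over these lists, 55 of 57 genes were tested, and 2 were higher and 5 lower (3.64% and 9.09%, beside 11% and 12.4% of all genes), with a median log2 fold change of -0.27. Mrm1, which methylates mitochondrial ribosomal RNA, was higher, at a scaled CPM of 9.92, 39.3 and 16.3 in variation A and 952 and 738 in variation B (log2 fold change 5.23, adjusted p = 0.00136, edgeR with Benjamini-Hochberg adjustment). The initiation factor gene Mtif2 was higher, at 6.45, 3.50 and 2.96 against 16.4 and 11.8 (log2 fold change 1.64, adjusted p = 0.0327, same test). Mtif2 was not called with the replicate number as a block, at equal depth, against a fold change of 2, or without A2 or A3. The elongation factor genes Tsfm and Tufm were lower, with log2 fold changes of -2.19 and -1.73, as were Lrpprc at -1.30, the GTPase gene Noa1 at -3.45 and the seryl-tRNA synthetase gene Sars2 at -2.09. With library totals Tsfm, Tufm and Sars2 did not pass, at -0.62, -0.18 and -0.60, and the sign for Lrpprc turned, at 0.20. Without A2, and also without A3, none of Tsfm, Tufm, Lrpprc and Sars2 passed. Of the 5 mitoribosomal proteins with other names edgeR called 0, with 0 higher and 2 lower at an unadjusted p under 0.05. DESeq2 called 0 higher and 1 lower, as did edgeR with upper-quartile factors and without A1.

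Members were set beside the other machinery they work with. Cytosolic ribosomal protein genes had 0 higher and 20 lower of 74 tested (27% lower, beside 12.4% of all genes), with 7 higher and 24 lower at an unadjusted p under 0.05 in edgeR and 2 higher in DESeq2, and a median log2 fold change of -0.51. Rpl27, at 23.8, 72.0 and 59.2 scaled CPM in variation A and 3.03 and 6.32 in variation B, fell most. These counts depended on the setting, with 25 higher and 1 lower for library totals (33.8% and 1.35%, beside 55.1% and 2.93% of all genes). Without A1 there were 13 and 22 (17.6% and 29.7%, beside 20.8% and 15%), and without B1 0 of either (beside 1.92% and 2.3%). Nuclear respiratory chain genes had 3 higher and 14 lower of 75 tested (4% and 18.7%, beside 11% and 12.4% of all genes) and a median of -0.54. With library totals they had 25 higher and 1 lower (33.3% and 1.33%, beside 55.1% and 2.93%). Without A1 the respiratory chain genes had 16 and 18 (21.1% and 23.7%, beside 20.8% and 15%). Without A2 they had 1 and 5 (1.3% and 6.49%, beside 3.46% and 3.64%). The replicate number as a block gave 2 and 8 (2.67% and 10.7%, beside 7.4% and 7.9%). Atp5g3 was higher and Cycs was lower, with log2 fold changes of 1.88 and -2.90. Of the 13 mRNAs of the mitochondrial genome 7 were tested, and mt-Nd1 and mt-Cytb were higher, with log2 fold changes of 1.34 and 1.23 (adjusted p = 0.0373 and 0.0498, edgeR with Benjamini-Hochberg adjustment), 28.6% of the list beside 11% of all genes. Neither passed with the replicate number as a block, against a fold change of 2, or without A2, A3, B1 or B2, and mt-Cytb did not with upper-quartile factors. These lists are described by counts and medians, and no difference between lists was tested.

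**Figure D5:**
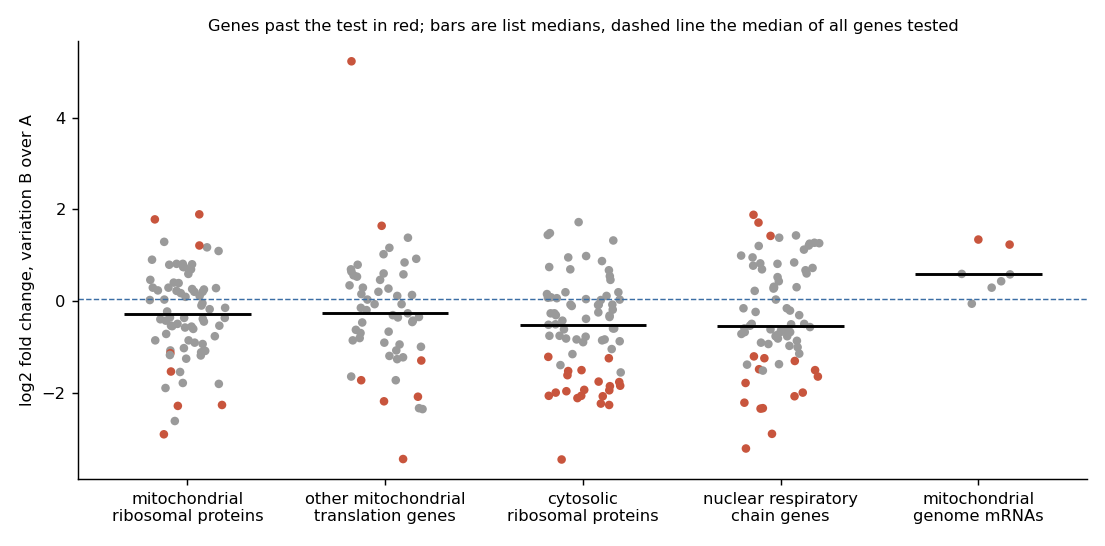
Log2 fold change of variation B over A for the tested genes of 5 lists, with genes past the test in red, list medians as bars and the median of all genes tested (0.05) dashed. Mitochondrial ribosomal protein genes have a median of -0.29 with 8 calls, and cytosolic ribosomal protein genes a median of -0.51 with 20 calls, all lower; all 5 list medians are above 0 with library totals.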

How the data were processed

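Surface-seq libraries of EL4 cells were analysed, 3 of variation A and 2 of variation B, grouped by the library names in the labels. The deposited values are raw counts per gene: for these the authors ran Trimmomatic 0.36, then STAR 2.7.3a on GRCm38, then featureCounts 1.6.4 on GENCODE M24 exons without using strand. Symbols came from GENCODE M21 by identifier (55144 of 55385 genes). The variations were compared in R 4.3.3 by edgeR 4.0.16, with its filterByExpr filter, TMM scaling and quasi-likelihood test. The SE was derived from the test statistic. The script was tested on simulated data. Sums were compared by exact permutation in Python 3.11.15, pseudogenes by blastn. The 4 pairs of libraries within a variation differed by more than counting noise. Alternatives covered DESeq2 1.42.0, scaling, filters, depth, gene length, the replicate block and each library left out. The promoter motifs were chosen after the data were seen, and those of NRF1 and YY1 were shortened by 1 letter after a first search. Members and lists were chosen with earlier results of these data known. Genes named were members called in each direction, the 4 highest and 2 lowest per kb, Mrpl12, Mrps12, Mrpl44, Mrpl45, Mrpl58 and Mrps36 by role, and up to 6 called genes per direction of other lists; of these last, only some are printed. Lars2, the overlapping genes, Mrpl46, Mrps33, Mrps34, Mrps18c and Mrpl47 were added after their values were seen.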

Additional observations from a re-analysis of the deposited data

How the results depend on the processing

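With library totals as the only scaling, 32 mitochondrial ribosomal protein genes were called higher and 1 lower, and 24 and 1 of the other mitochondrial translation genes. The median of the ribosomal protein genes was then 1.24, and the log2 fold changes of Mrps7 (0.28), Mrpl10 (1.17), Mrpl28 (0.86), Mrpl12 (0.47) and Lrpprc (0.20) changed sign. The replicate block gave 1 higher and 2 lower, and 1 and 3 of the other translation genes. Over 10287 genes, deviations from the group mean correlated at -0.104 between A1 and B1 and -0.0341 between A2 and B2. The deviations of B1 and B2 mirror each other, since variation B has only 2 libraries. These correlations therefore do not settle whether the replicate numbers pair the libraries. Equal depth gave 1 higher, and 1 of the other translation genes. A test against a fold change of 2 gave 0 higher and 2 lower, and 1 and 1. Without a filter 3 were lower and the median was -0.15. With at least 10 counts in every library 3 were lower, the median was -0.61 and 17 genes were detected in every library, against 23 at a CPM above 5. Of the other translation genes 9 were lower with upper-quartile factors and 8 with the length trend removed. Genes without an exon overlap alone gave 0 higher and 2 lower, fewer genes being tested, and changed the sign of the difference in the protein-coding share (-0.0169) and in counts per 100 respiratory chain counts (-1.27). Leaving out 1 library at a time gave 0 to 9 higher and 0 to 12 lower, 1 to 5 and 0 to 10 of the other translation genes, and medians of -0.27 to -0.05; a lone variation B library is assumed to vary like the others. The cause of these changes was not tested. Over all alternatives, 94 summary values and 439 gene values were labelled the same. For sums and ratios this can mean the same direction only, since 0.1 is the smallest p that their exact permutation test allows. The difference in counts per 100 cytosolic ribosomal protein counts, for 1, shrank from 4.97 to 0.858. Of the summary values, 47 were labelled moved and 3 reversed. Of the gene values, 153 no longer passed and 7 newly passed. Only 3 gene values were labelled reversed, so some sign changes named above are counted under other labels. Depth limits variation A most, where the median gene had 5 counts in A3.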
